A study of Mus musculus with 4 samples.

Results

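The genes described here are 10 genes of the NRF2 antioxidant pathway, chosen by name: the regulators Nfe2l2 and Keap1, and 8 target genes, Nqo1, Hmox1, Gclc, Gclm, Gsr, Gsta4, Txnrd1 and Srxn1. Each was read from probe sets whose platform annotation gives that symbol alone, and where there were several, the brightest on average was kept. All 10 were found among 22180 genes named in this way. NRF2, the product of Nfe2l2, is a transcription factor that KEAP1 holds in the cytoplasm and hands to a ubiquitin ligase. Oxidants and electrophiles modify KEAP1, NRF2 then escapes degradation, pairs with a small MAF protein and binds antioxidant response elements near genes for glutathione synthesis, thioredoxin reduction, NADPH supply and the detoxification of quinones, carbonyls and haem. The programme is active in many tumours, where it helps cells to withstand oxidative stress.

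The cells were CT26, a cultured line from a mouse colon carcinoma, measured on 4 Affymetrix Mouse Gene 2.0 ST arrays. One culture received 5 µM Senexin B, an inhibitor of the Mediator kinases CDK8 and CDK19, for 24 h, and 1 culture received its solvent DMSO for 24 h. The line labelled CT26-shCDK8 is named for a short hairpin RNA against Cdk8, and CT26-pLKO.1 carries the hairpin vector as its control. Each group had 1 array, so no difference could be tested, no replicate spread exists, and every difference below is 1 array minus 1 array on the log2 scale of the deposited RMA values. The labels do not say whether the hairpin line is a clone or a pool, how many hairpins were used, or whether the vector and hairpin lines received any solvent.

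The arrays were alike as a whole, with medians of 5.99 to 6.04 over 41345 probe sets and Pearson's r of 0.982 to 0.990 between arrays, across probe sets. Cdk8 stood at 9.07 in shCDK8, against 10.79 in pLKO.1, and at 10.58 with Senexin B, against 10.69 with DMSO. Genes were called expressed if at least 1 array gave a value of 5.98 or more, the 40th percentile over all genes and arrays. That left 14272 genes, and all 10 pathway genes were over this limit on all 4 arrays. Of 7 epithelial markers 5 reached the limit, while Epcam and Vil1 stayed under it on all arrays. The leukocyte markers Ptprc, Cd3e, Itgam and Adgre1 and the hepatocyte marker Alb were under it on all arrays. The liver marker Apoa1 was over it on all 4 arrays, at 6.66 to 7.08, beside 6.50 to 6.74 for the epithelial marker Cdh1. The endothelial markers Pecam1 and Cdh5 were over it on 3 and 2 arrays. In cultures measured in bulk, fewer cells that express a gene and less RNA of it per cell cannot be told apart.

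Promoter sequences show where the known binding letters of NRF2 lie in some of these genes. The RefSeq promoter table of build GRCm38.p6, with 250 bases before and 50 after each start site, held 6 of the 10 genes. Both strands were searched for the core of the antioxidant response element, spelled TGACNNNGC or TGAGNNNGC, which 12.4% and 17.6% of 32851 promoter windows hold, and 27.8% hold at least 1 of them. Windows of Gclm, Nfe2l2 and Srxn1 and 1 of 3 windows of Txnrd1 held a match, and those of Nqo1 and Keap1 held none. Nqo1 is shown because it differed most between the arrays, Srxn1 because its window held 3 matches, and Gclm as a window with 1 match. All are printed 5′ to 3′ on the gene's own strand with matches in capitals. The windows are chr8:107403156-107403455 (minus strand) for Nqo1, chr2:152105274-152105573 (plus strand) for Srxn1 and chr3:122245307-122245606 (plus strand) for Gclm.
Nqo1: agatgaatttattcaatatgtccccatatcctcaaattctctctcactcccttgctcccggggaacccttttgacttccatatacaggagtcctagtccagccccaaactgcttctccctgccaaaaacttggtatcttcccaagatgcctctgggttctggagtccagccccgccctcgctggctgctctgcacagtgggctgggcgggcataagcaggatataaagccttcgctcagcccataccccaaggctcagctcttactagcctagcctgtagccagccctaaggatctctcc
Srxn1: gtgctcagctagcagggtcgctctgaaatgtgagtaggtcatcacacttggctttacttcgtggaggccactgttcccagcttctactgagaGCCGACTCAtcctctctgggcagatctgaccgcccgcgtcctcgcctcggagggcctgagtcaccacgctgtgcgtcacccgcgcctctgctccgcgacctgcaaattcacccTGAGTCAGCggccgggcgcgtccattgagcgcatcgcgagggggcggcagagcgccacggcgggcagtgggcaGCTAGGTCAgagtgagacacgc
Gclm: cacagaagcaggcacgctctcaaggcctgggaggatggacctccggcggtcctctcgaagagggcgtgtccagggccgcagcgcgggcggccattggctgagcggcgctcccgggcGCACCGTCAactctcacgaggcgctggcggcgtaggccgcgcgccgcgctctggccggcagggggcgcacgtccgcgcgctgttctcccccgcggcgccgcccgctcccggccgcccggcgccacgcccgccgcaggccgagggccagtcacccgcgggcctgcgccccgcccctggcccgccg

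In Srxn1 the leftmost bases of the matches lie at -158, -45 and 28 relative to the start site. The match at -45 overlaps TGACTCA on the opposite strand, the AP-1 site, which 5.2% of all windows hold and which occurs in this window a further time at -102. The Gclm match lies at -134 on the opposite strand. A match is a description of letters, and the lack of one in Nqo1 says only that these letters are not in this window.

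Of the 10 genes, 3 were at least 1.5-fold apart in at least 1 of the paired comparisons. Nqo1 was 3.28-fold lower in the hairpin line than in the vector line but 1.32-fold higher with Senexin B than with DMSO. Hmox1 was lower in both comparisons, 2.12-fold with Senexin B and 1.60-fold in the hairpin line. Gsta4 was higher in both, 1.26-fold with Senexin B and 2.22-fold in the hairpin line. The remaining 7 genes, both regulators among them, differed by less than 1.5-fold in both comparisons.

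**Figure D1:**
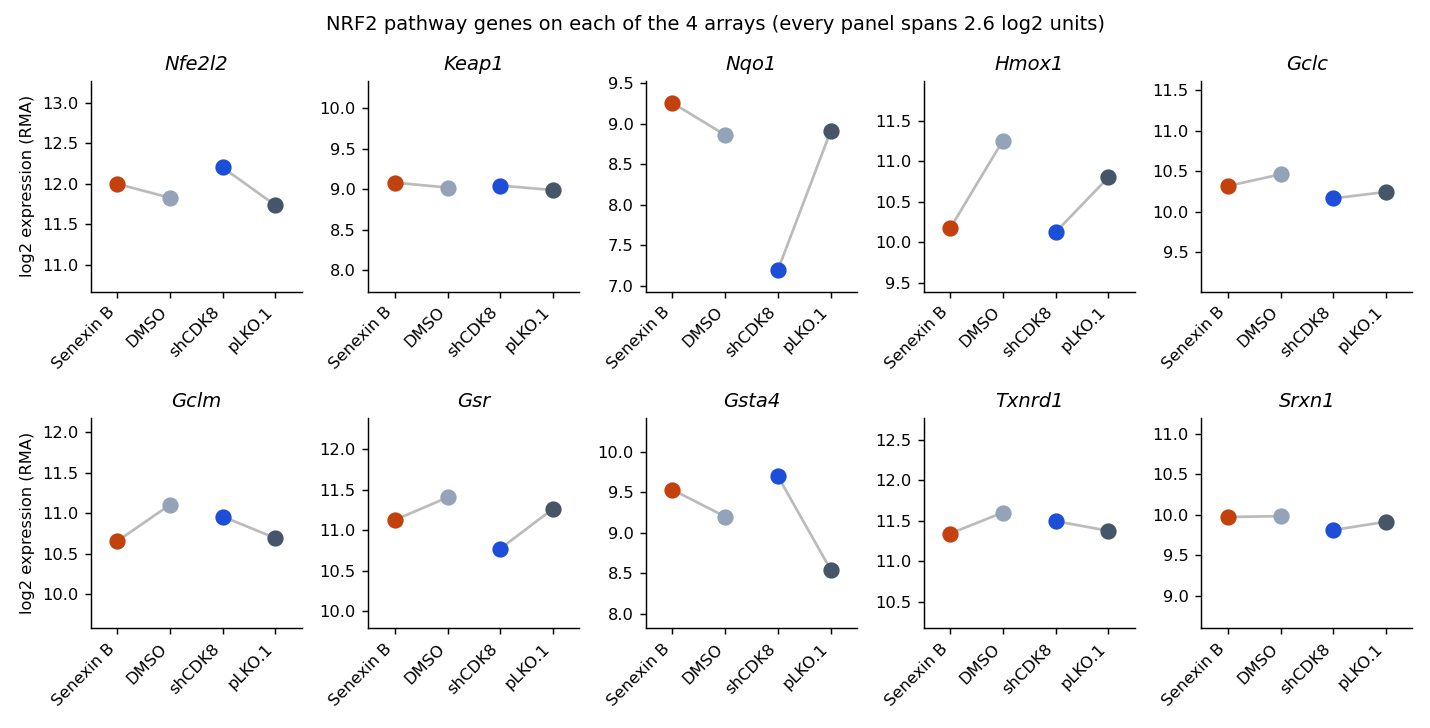
The log2 expression value of each of the 10 genes on each of the 4 arrays, 1 point per array, with lines joining Senexin B to DMSO and shCDK8 to pLKO.1; every panel spans the same number of log2 units, and the height of one gene's panel is not comparable with another's. Nqo1 is low on the shCDK8 array (7.19), Hmox1 is lowest on the shCDK8 (10.12) and Senexin B (10.17) arrays, and Gsta4 is lowest on the pLKO.1 array (8.54).

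Of the regulators, Nfe2l2 was 1.38-fold higher in the hairpin line, and Keap1 differed by 1.04-fold in both comparisons. Nfe2l2 had a log2 value of 12.00 with Senexin B, against 11.82 with DMSO, and of 12.20 in shCDK8, against 11.73 in pLKO.1. The Senexin B and shCDK8 arrays were thus both above both control arrays, by differences of 0.17 and 0.47 within each pair. In the hairpin comparison 3.62% of expressed genes were at least as far above 0, and for Senexin B 20.5% were. Keap1, which encodes the sensor that targets NRF2 for degradation, had 9.08 with Senexin B, against 9.02 with DMSO, and 9.05 in shCDK8, against 8.99 in pLKO.1. Its whole range over the 4 arrays was 0.092, and 95.9% of expressed genes had a range at least that wide. A further probe set of Keap1 gave differences of 0.032 and 0.12, again small.

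Glutathione is made by glutamate-cysteine ligase, with a catalytic subunit from Gclc and a modifier subunit from Gclm, and its oxidized form is reduced by glutathione reductase from Gsr. Gclc had 10.32 with Senexin B, against 10.46 with DMSO, and 10.17 in shCDK8, against 10.25 in pLKO.1, so all 4 arrays lay within 0.30. Gclm had 10.66 with Senexin B, against 11.11 with DMSO, and 10.96 in shCDK8, against 10.70 in pLKO.1. The DMSO array was the high one for Gclm, and its differences ran opposite ways, -0.45 with Senexin B and 0.27 in the hairpin line. The pLKO.1 array was as far below DMSO, at -0.41, and Senexin B minus pLKO.1 was -0.039. For Gclc these swapped differences were 0.073 for Senexin B minus pLKO.1 and -0.30 for shCDK8 minus DMSO, and for Gclm shCDK8 minus DMSO was -0.14, so whether the subunits of the ligase had the same sign depended on the control array. Gsr had 11.13 with Senexin B, against 11.41 with DMSO, and 10.77 in shCDK8, against 11.27 in pLKO.1. It was lower in both comparisons, by -0.28 and -0.49, and in the hairpin comparison 2.86% of expressed genes were at least as low. Against the DMSO array the shCDK8 value was at -0.63, or 1.55-fold lower.

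Gsta4 encodes an alpha-class glutathione transferase that conjugates 4-hydroxynonenal, an aldehyde from oxidized lipids. It had 9.53 with Senexin B, against 9.20 with DMSO, and 9.70 in shCDK8, against 8.54 in pLKO.1. The Senexin B and shCDK8 arrays were both above both controls, and the pLKO.1 array stood apart as the low one. In the hairpin comparison the difference was 1.15, and 15 expressed genes were at least as far above 0. The vector line itself was 0.66 below the DMSO array, and 30 expressed genes were at least as low in that difference. Against the DMSO array the shCDK8 value was higher by 0.50, or 1.41-fold, no longer past 2-fold, while Senexin B against pLKO.1 was higher by 0.99. The size of the Gsta4 difference therefore depends on which control array is used, and its direction does not.

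The 2 genes of the thioredoxin arm differed by less than 0.3 in both comparisons. Txnrd1 encodes cytosolic thioredoxin reductase and had 11.34 with Senexin B, against 11.60 with DMSO, and 11.50 in shCDK8, against 11.38 in pLKO.1. Srxn1 encodes sulfiredoxin, which restores over-oxidized peroxiredoxins. It had 9.97 with Senexin B, against 9.98 with DMSO, and 9.81 in shCDK8, against 9.91 in pLKO.1. The 4 arrays of Srxn1 lay within 0.17 and those of Txnrd1 within 0.26, beside a median range of 0.31 over expressed genes. Srxn1 is the gene whose promoter window held 3 matches to the response element.

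Nqo1 encodes a quinone reductase that passes 2 electrons to quinones and so avoids reactive semiquinones. It had 9.25 with Senexin B, against 8.86 with DMSO, and 7.19 in shCDK8, against 8.91 in pLKO.1. The shCDK8 array was the single low one, and the other three lay within 0.40 of each other. The hairpin difference was -1.71, and 7 expressed genes, Nqo1 included, were at least as low. The control arrays differed by only 0.049, and against the DMSO array the shCDK8 value was still lower, at -1.66. With Senexin B the difference was 0.40 in the other direction, where 6.23% of expressed genes were at least as far above 0, and against pLKO.1 it was 0.35. The inhibitor and the hairpin therefore gave opposite signs for Nqo1 against either control array, although neither difference could be tested.

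Hmox1 encodes haem oxygenase-1, which breaks down haem to biliverdin, iron and carbon monoxide. It had 10.17 with Senexin B, against 11.25 with DMSO, and 10.12 in shCDK8, against 10.80 in pLKO.1. The Senexin B and shCDK8 arrays were alike and both lay under both controls, with the DMSO array the highest. The differences were -1.08 for Senexin B, where 28 expressed genes were at least as low, and -0.68 for the hairpin, where 173 were. The vector line was itself 0.45 lower than DMSO on the log2 scale, so the sizes shift with the control: Senexin B minus pLKO.1 was -0.63 and shCDK8 minus DMSO was -1.13. The smallest of these 4 differences was 1.55-fold.

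**Figure D2:**
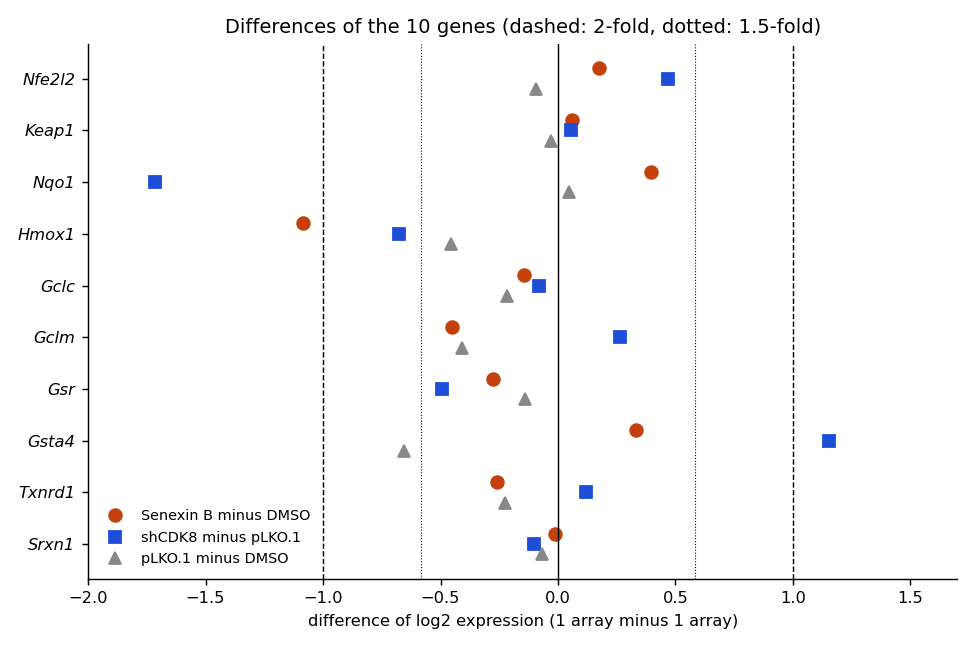
Differences of log2 expression for the 10 genes, each a difference of 1 array minus 1 array, for Senexin B minus DMSO (circles), shCDK8 minus pLKO.1 (squares) and the control arrays, pLKO.1 minus DMSO (triangles). Hmox1 is past 2-fold with Senexin B (-1.08), and Nqo1 (-1.71) and Gsta4 (1.15) are past 2-fold in the hairpin comparison. Of the 10 triangles 9 lie below 0, beside 7933 of 14272 expressed genes.

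Counted over the set, 1 of 10 genes was at least 2-fold apart with Senexin B (Hmox1, lower), beside 0.939% of all expressed genes in either direction. It was also the single gene at least 1.5-fold apart, beside 4.0% of expressed genes. In the hairpin comparison 2 of 10 were at least 2-fold apart, Nqo1 lower and Gsta4 higher, beside 0.518% of expressed genes. At 1.5-fold there were 3 of 10, with Hmox1 added, beside 3.52%. Between the control arrays 1 of 10, Gsta4, was 1.5-fold apart, beside 1.04%, and none of the 10 was 2-fold apart, beside 0.0981%. With no replicates, and with genes chosen when earlier results of these data were known, these shares describe the arrays and are not a test.

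The set had no common direction in the inhibitor or the hairpin comparison. The median difference of the 10 genes was -0.078 for Senexin B minus DMSO, beside -0.028 over all expressed genes. There 4 lay above 0 and 6 below, beside 7865 of 14272 expressed genes below. For shCDK8 minus pLKO.1 the median was -0.012, beside 0.0038 over all expressed genes. In that comparison 5 lay above 0 and 5 below, beside 7009 of 14272 below. For pLKO.1 minus DMSO the median was -0.18, beside -0.023 over all expressed genes. Between these controls 9 of 10 lay below 0, beside 7933 of 14272. The 8 target genes alone had medians of -0.20 with Senexin B, -0.091 in the hairpin comparison and -0.22 between the controls. Of these 8, 6 lay below 0 with Senexin B, 5 in the hairpin comparison and 7 between the controls. With the control arrays swapped, 4 lay below 0 for Senexin B minus pLKO.1 and 7 for shCDK8 minus DMSO. The median of the set was thus further from 0 between the control arrays than in either comparison.

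The inhibitor and hairpin comparisons share no array. In them 7 of 10 genes had the same sign, against 52.5% of expressed genes, and the exceptions were Nqo1, Gclm and Txnrd1. Srxn1, at -0.011 with Senexin B, turned to 0.044 after a repeated quantile normalization and 0.078 after removal of a lowess trend, and then had opposite signs too. A stricter reading, chosen after the values were seen, asks whether the Senexin B and shCDK8 arrays both lay on 1 side of both controls. They lay above them for Nfe2l2, Gsta4 and Keap1, 3 of 10 genes, beside 16.3% of expressed genes. They lay below them for Hmox1 and Gsr, 2 of 10, beside 18.9%. With the nearest arrays also 1.5-fold apart, Hmox1 alone remained, with a gap of 0.63, among 15 expressed genes below the controls, or 0.105%.

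**Figure D3:**
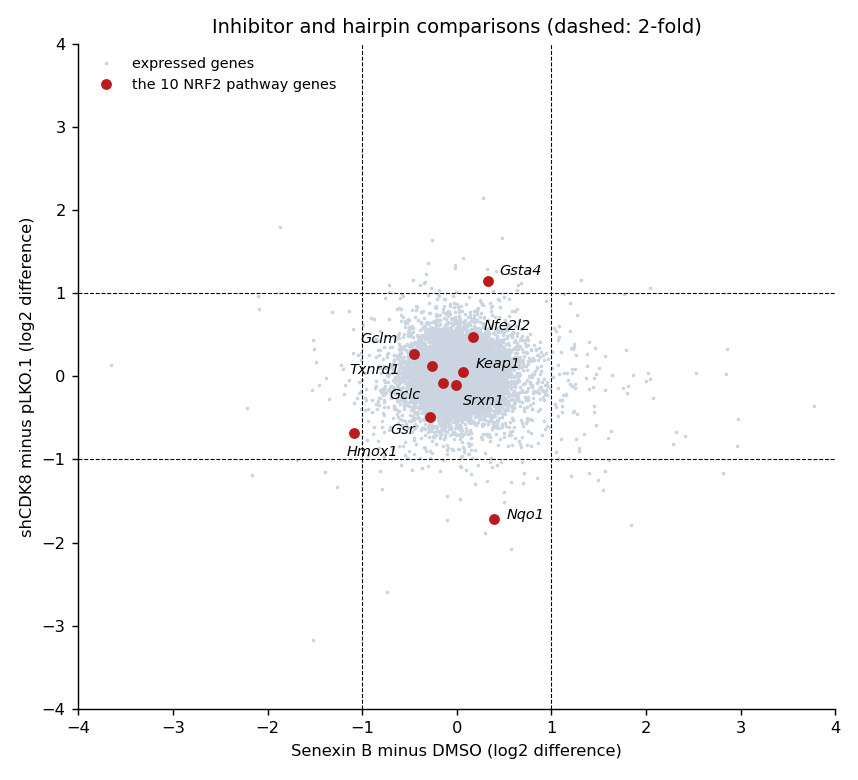
Each grey point is 1 of the 14272 expressed genes and each red point 1 of the 10 pathway genes, with the log2 difference Senexin B minus DMSO on the x axis and shCDK8 minus pLKO.1 on the y axis. Nqo1 lies at 0.40 and -1.71, Hmox1 at -1.08 and -0.68, Gsta4 at 0.33 and 1.15, and the remaining 7 lie inside the cloud.

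Genes linked to the pathway were read from 8 lists of 118 further genes, of which 105 had a probe set of their own and 91 were expressed. The lists were drawn up by role and are not limited to NRF2 targets. They were chosen with earlier results of these data known, so the shares below describe the lists and are not a test. With Senexin B, 5 of the 91 were at least 1.5-fold higher than with DMSO, beside 2.35% of all expressed genes, and 4 of these were 2-fold higher, beside 0.687%. One was at least 1.5-fold lower, beside 1.65%. The list as a whole had a median of -0.0051. The higher genes were Aldh3a1, an aldehyde dehydrogenase (2.97), Cbr2, a carbonyl reductase (1.47), Idh1, the cytosolic isocitrate dehydrogenase that yields NADPH (1.37), Sod3, the extracellular superoxide dismutase (1.29), and Slc7a11, the cystine transporter that feeds glutathione synthesis (0.64). The lower gene was Txnip, which binds and inhibits thioredoxin (-0.67). Against the pLKO.1 array Aldh3a1, Cbr2 and Idh1 stood at 3.16, 1.47 and 1.51, Sod3 at 0.94, Slc7a11 at 1.17 and Txnip at -0.70, so all 6 kept their direction.

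In the hairpin comparison 3 of the 91 were at least 1.5-fold higher, beside 1.67% of all expressed genes, and 1 was lower, beside 1.85%. None of the 91 was 2-fold apart, and their median was 0.021. The higher genes were the aldo-keto reductase gene Akr1b10 (0.85) and the mu-class glutathione transferase genes Gstm2 (0.76) and Gstm7 (0.61). Sod3 was lower, at -0.86. On the pLKO.1 array Gstm2 and Gstm7 lay below the limit for expressed genes, and against the DMSO array they stood at 0.22 and -0.058, so their differences rest on the low pLKO.1 value. Akr1b10 and Sod3 also fell short of 1.5-fold against the DMSO array, at 0.52 and -0.50. Mu-class genes resemble each other closely, and how far their probes tell them apart was not examined. Sod3 and Aldh3a1, like Nqo1, were higher with Senexin B and lower in the hairpin comparison, where Aldh3a1 was at -0.51. Opposite signs are common, since only 52.5% of expressed genes had the same sign in both comparisons. Other listed genes had them too, such as Sesn3 (0.57 and -0.37) and Mgst3 (0.46 and -0.22).

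Among the partners of NRF2 and the haem and iron genes, 0 of 14 and 0 of 12 were 1.5-fold apart in either comparison. Since only 4.0% of expressed genes were with Senexin B and 3.52% in the hairpin comparison, lists of this size may hold none. Of 14 expressed regulators and partners the largest differences were Mafk, a small MAF partner (-0.51), and Syvn1, a ubiquitin ligase (-0.36), with Senexin B, and Nfe2l3, a relative of NRF2 (0.31), and the coactivator Ep300 (-0.29) in the hairpin line. Of 12 haem and iron genes they were the transferrin receptor Tfrc (-0.45) and mitochondrial ferritin Ftmt (0.26) with Senexin B. In the hairpin line they were biliverdin reductase B, Blvrb (0.26), and Aco1 (0.25), whose product also serves as an iron-responsive RNA-binding protein.

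The other 6 lists hold the genes named above and further ones with smaller differences. Of 14 expressed genes of glutathione synthesis and peroxidases, the largest in the hairpin comparison were Slc7a11 (0.40) and the glutaredoxin gene Glrx3 (0.30). Of 17 glutathione transferases and exporters, Gstm1 (0.52) and the microsomal transferase gene Mgst3 (0.46) were the largest with Senexin B, with a list median of 0.22. Of 11 thioredoxin and peroxiredoxin genes, Txnip (0.48) and the sestrin gene Sesn1 (-0.42) were the largest in the hairpin comparison. Of 6 genes of NADPH supply, Nadk (-0.14) and Nnt (-0.12) were the largest there. The 13 genes of quinone, carbonyl and epoxide metabolism had medians of 0.23 with Senexin B and 0.16 in the hairpin comparison, and the 4 genes that remove superoxide and hydrogen peroxide 0.36 and 0.042. With Senexin B the medians of the remaining lists lay below 0. They were -0.076 for regulators and partners, -0.053 for glutathione synthesis and peroxidases and -0.0051 for thioredoxin and peroxiredoxin. For NADPH supply and for haem and iron handling they were -0.045 and -0.036. All of these list medians compare with -0.028 with Senexin B and 0.0038 in the hairpin comparison over all expressed genes.

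**Figure D4:**
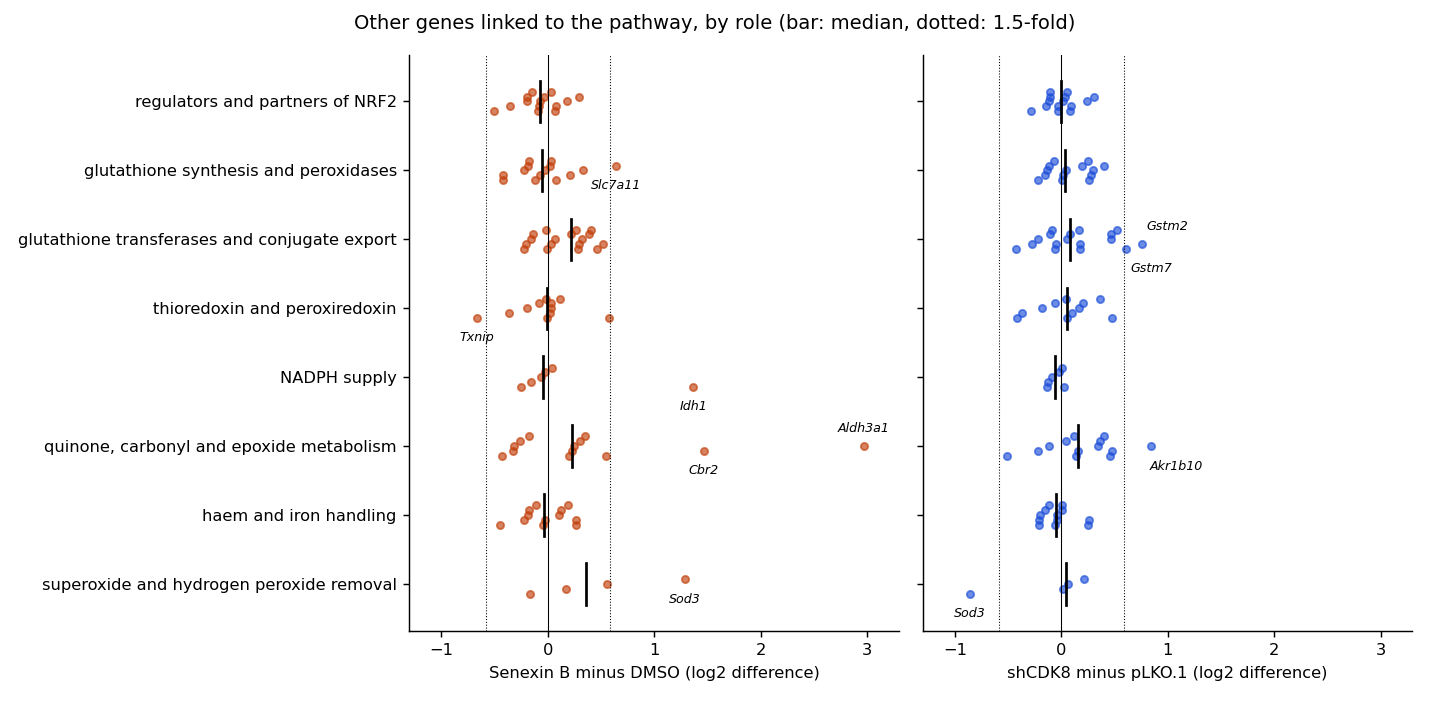
Log2 differences of the 91 expressed genes of the 8 further lists, 1 point per gene, for Senexin B minus DMSO on the left and shCDK8 minus pLKO.1 on the right, with the list median as a black bar and genes at least 1.5-fold apart named. Aldh3a1 (2.97), Cbr2 (1.47), Idh1 (1.37) and Sod3 (1.29) are past 2-fold with Senexin B, and no gene is past 2-fold in the hairpin comparison.

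Nqo1 also belongs to the genes driven by the aryl hydrocarbon receptor, a sensor of planar aromatic compounds. The list read here also holds the receptor gene Ahr itself and its partner gene Arnt. Of its 9 measured genes 7 reached the limit, 2 of them on a single array. Cyp1a2 did so on the Senexin B array (6.13) and Cyp1a1 on the pLKO.1 array. With Senexin B 6 of the 7 lay above 0 and none below, beside 6396 of 14272 expressed genes above 0. Their median was 0.35, beside -0.028 over all expressed genes. The 6 above 0 include Cyp1a2 (0.38), which was counted only because its Senexin B value passed the limit. In the hairpin comparison 6 of 7 lay below 0, beside 7009 of 14272 expressed genes. The median there was -0.18, beside 0.0038. That median is the value of Cyp1a1, which was counted only because its pLKO.1 value passed the limit. Cyp1a2 (-0.080) was under the limit on both arrays of this comparison, and Arnt (0.29) was the gene above 0. These counts and medians thus rest in part on values near the limit and are not a test. The 7 include Nqo1 itself and Aldh3a1, which were also counted above in other lists. In the hairpin comparison Aldh3a1 (-0.51) and Ahr (-0.44) had the largest differences beside Nqo1. Tiparp, Arnt, Cyp1a1 and Cyp1a2 were named after their values were seen. Tiparp, a feedback repressor of the receptor, was at 0.35 with Senexin B and -0.081 in the hairpin comparison, and the receptor gene Ahr at 0.15 and -0.44. Cyp1a1, the receptor's best known target, was under the limit on 3 of 4 arrays and had 5.91 on both the Senexin B and DMSO arrays, and 5.85 in shCDK8, against 6.02 in pLKO.1.

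The genes most like the 3 outlying members were found by the distance between profiles over the 4 arrays, each centred on its own mean. With 4 arrays this is a description and says nothing of shared control. Nearest to Nqo1 were the potassium channel gene Kcnab2 (distance 0.29), the collagen gene Col3a1 (0.35), the prolyl hydroxylase gene Egln3 (0.39), the osteomodulin gene Omd (0.45) and Cdk8 itself (0.46). All 5 were lowest on the shCDK8 array. Nearest to Hmox1 were the metalloproteinase inhibitor gene Timp1 (0.26), Lyz1 (0.28), Defa40 (0.29), Cntnap4 (0.32) and Tnfrsf23 (0.33). Nearest to Gsta4 were the claudin gene Cldn9 (0.26), Gstm2 (0.29), Kifc5b (0.32), Clybl (0.33) and Insl6 (0.34). Gstm2 is thus the single gene of the pathway lists among these 15. Some of these profiles run through values under the expression limit. Lyz1 was over it on the DMSO array alone (6.09), and Omd was under it in shCDK8 (5.43). Insl6 was under it on DMSO (5.77) and pLKO.1 (5.52), and Gstm2 on pLKO.1 (5.72). The epithelial marker Krt20 was also low on the shCDK8 array, at 6.59 against 8.03 in pLKO.1, which itself was 0.69 below DMSO. The other expressed epithelial markers, Krt8, Krt18, Cdh1 and Cdx2, lay above 0 in the hairpin comparison, at 0.0040, 0.036, 0.24 and 0.41. The part of Krt20 in the Nqo1 result was not tested.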

How the data were processed

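Total RNA of 4 CT26 cultures was measured on 1 array each. The authors deposited log2 expression values per probe set, made with RMA and Affymetrix Expression Console per the submitters' processing notes; their versions, their settings and a joint normalization of the arrays are not stated in the labels or the file. RMA equalizes array distributions and compresses differences near background, and the number of arrays limits the precision. Of 41345 probe sets 23521 had 1 gene symbol in the platform annotation, 1814 several and 16010 none, and only the first were used.

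Differences of log2 values were computed with pandas 2.3.3 and called at 1.5-fold or 2-fold. The code that makes these calls was checked on simulated arrays, which is no test of the differences. No p-value was possible. Named were all 10 genes, listed genes at least 1.5-fold apart or otherwise the 2 largest per list, and the 5 nearest profiles of each member 2-fold apart, without predicted loci, pseudogenes and small RNAs. Members and lists were chosen with earlier results of these data known. The alternatives were other expression limits, a repeated quantile normalization, a lowess trend (span 0.3), other probe-set rules, a floor at the limit and the other control array. Promoters are RefSeq's, build GRCm38.p6.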

Additional observations from a re-analysis of the deposited data

How the results depend on the processing

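Using the other control array as reference changed most. Against pLKO.1 the Senexin B median of the 10 genes was 0.066, with 2 genes (Hmox1 and Gsta4) at least 1.5-fold apart and 0 at 2-fold, and 11 of the other pathway genes were 1.5-fold apart in place of 6. Against DMSO the shCDK8 median was -0.16 and 2 of the other pathway genes were 1.5-fold apart in place of 4. These were Gsto2 (0.65) and Aldh3a1 (-0.70), and none of the 4 (Akr1b10, Gstm2, Gstm7 and Sod3) was among them. A limit at the 60th percentile also gave 2 such genes. At 1.5-fold the count of 3 of the 10 genes against DMSO held Gsr (-0.63) in place of Gsta4 (0.50). Of the 10 single genes, 6 in each comparison shifted by at least 0.1 with that array, and 2 in each changed sign, none of them 2-fold apart: Gclc and Srxn1 with Senexin B, and Gclm and Txnrd1 in the hairpin line. Under the repeated quantile normalization, the lowess trend, the mean of probe sets, the genes with 1 probe set and the floor, no single gene shifted by 0.1. Srxn1 with Senexin B alone changed sign, under both rescalings. The counts of the 10 genes past 1.5-fold and 2-fold did not change. Those of the other pathway genes stayed within a factor of 1.5, but with Senexin B rose from 6 to 9 under both rescalings. The medians, all near 0, crossed it in 3 cases: 0.0086 for Senexin B after the lowess trend, and for shCDK8 0.0015 after the quantile normalization and 0.0052 with the mean of probe sets. With 1 array per group no alternative leaves out a replicate. No paired analysis was possible because the labels give no replicate numbers and each group has 1 array. The signal over background of the probes was not used here, so values near the expression limit are the least certain.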
